A study of Homo sapiens with 4 samples.

Results

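The genes described here are the 7 that encode dystroglycan and enzymes of its O-mannosylation, namely DAG1, POMT1, POMT2, POMGNT1, POMGNT2, POMK and LARGE2. They were taken by name from a deposited table of 58735 genes, and all 7 had a row. POMK was chosen by its log2 fold change between shSPTLC2 and shCON, a strong fall, so its values in that comparison are a description without a test. The other members were chosen for their place in the pathway, with earlier results of these data known. The series holds RNA-seq of Hey-A8, a line derived from ovarian carcinoma, in 2 shSPTLC2 libraries and 2 shCON libraries. The shSPTLC2 cells carried a hairpin labelled as directed at SPTLC2, which encodes a subunit of the enzyme that begins sphingolipid synthesis, and the shCON cells carried a control hairpin. The series text calls the knockdown stable, whereas the treatment protocol describes transient transfection of hairpins against ZDHHC15 and harvest after 36 h. The groups follow the sample titles. How many hairpins were used, and whether cells were cloned or pooled, is not given in the sources used here.

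O-mannosylation starts in the endoplasmic reticulum, where the POMT1 and POMT2 proteins form the complex that places mannose on alpha-dystroglycan. POMGNT1 extends some of these mannoses, whereas POMGNT2 and then B3GALNT2 extend others into a glycan whose mannose POMK phosphorylates. On that phosphorylated glycan further enzymes, RXYLT1 and B4GAT1 among them, build a linker on which LARGE2 can polymerize matriglycan, the polysaccharide that binds laminin, agrin and perlecan. Loss of these enzymes is known for causing muscular dystrophies, and dystroglycan also links epithelial cells to basement membrane.

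DAG1, the substrate gene, fell to 21.8 ± 0.166 FPKM (fragments scaled to gene length and library size; SD, n = 2) in shSPTLC2, against 29.8 ± 3.53 FPKM in shCON, though the call needed both shSPTLC2 libraries. POMT1, POMT2, POMGNT1 and POMGNT2, the enzyme genes that act before the kinase or on other branches, were not called. POMK stood at 2.03 ± 0.391 FPKM in shSPTLC2 and 5.79 ± 1.67 FPKM in shCON. LARGE2 had no read in any library.

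Total counts were 14464784 and 15084966 in shSPTLC2 replicates 1 and 2 and 14999624 and 15017593 in shCON replicates 1 and 2. SPTLC2 averaged 41.5 ± 2.27 CPM (counts scaled to library size; SD, n = 2) in shSPTLC2 and 59.7 ± 1.37 CPM in shCON, a log2 fold change of -0.52 ± 0.12 (SE; adjusted p = 0.0063 in edgeR), and 722 genes called lower had a lower one. That call ended without shSPTLC2 replicate 1 (0.134) and without shSPTLC2 replicate 2 (0.052), over 4.2e-04 to 0.134 in the alternatives. ZDHHC15 had 0 counts in every library. Genes of the mitochondrial genome took 10.1% and 8.56% of counts in the shSPTLC2 libraries, against 5.46% and 6.39% in the shCON libraries. Of 8 ovarian and epithelial markers, KRT8, KRT18, KRT7 and PAX8 were abundant, with 560 to 566 FPKM summed over the list in shSPTLC2 and 484 to 519 in shCON. EPCAM had 3 to 10 counts per library, and MUC16 had 1 count in 1 shCON library and 0 in the others. Of 9 leukocyte, endothelial and muscle markers, CD3E and MYOD1 were at 0 throughout and only the endothelial cadherin gene CDH5 exceeded 1 FPKM, the list summing to 17.9 and 21.6 FPKM in shSPTLC2 and 9.92 and 9.55 FPKM in shCON. CDH5 itself had 17.7 and 21.3 FPKM in shSPTLC2, against 9.42 and 9.01 FPKM in shCON, most of the list's sum. PECAM1, another endothelial gene of the list, went the other way, with 6 and 12 counts in shSPTLC2, against 31 and 27 in shCON. CDH5 was called higher (log2 fold change 1.09 ± 0.12, SE, adjusted p = 3.7e-05 in edgeR). PECAM1 was called lower (log2 fold change -1.71 ± 0.46, SE, adjusted p = 0.018 in edgeR), and VWF at -0.61 ± 0.48 was not called. PAX8 had 66.0 and 59.5 FPKM in shSPTLC2, against 36.9 and 39.5 FPKM in shCON. Of 6 tested genes of the ovarian and epithelial list, 2 were called higher (PAX8 and MSLN), 0 lower and 4 were not called. Over all tested genes, 19.4% were called in either direction. WT1 (log2 fold change -0.30) and KRT8 (-0.07) lay below 0 and were not called. The part of these differences in the results below was not tested. A fit without mitochondrial genes left DAG1 at -0.45 and POMK at -1.50 (log2). That fit only takes those genes out of the library sizes and the scaling, so it does not test that part. In bulk RNA, fewer cells expressing a gene and less RNA per cell cannot be told apart. Nothing in the labels says that replicates are separate cultures, so p-values measure only the spread between these libraries, which may be technical.

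The promoter sequences of DAG1, which was called lower, and of POMGNT1, the most abundant enzyme gene of the set, are shown to set the called member beside one that was not called. Each is the 250 bases before the first of 2 starts that RefSeq lists for the gene, on build GRCh38.p14, written 5′ to 3′ on the gene's strand. Capitals mark GGGCGG, the core of a GC box, and CCAAT, each on either strand (CCGCCC and ATTGG on the other), with no overlap between the motifs.
DAG1, chr3:49469882-49470131, plus strand: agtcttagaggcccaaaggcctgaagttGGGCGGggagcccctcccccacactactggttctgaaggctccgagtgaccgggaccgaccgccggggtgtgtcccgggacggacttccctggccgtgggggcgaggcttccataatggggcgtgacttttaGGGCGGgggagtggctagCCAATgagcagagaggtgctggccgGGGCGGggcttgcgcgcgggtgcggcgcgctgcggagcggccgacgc
POMGNT1, chr1:46198435-46198684, minus strand: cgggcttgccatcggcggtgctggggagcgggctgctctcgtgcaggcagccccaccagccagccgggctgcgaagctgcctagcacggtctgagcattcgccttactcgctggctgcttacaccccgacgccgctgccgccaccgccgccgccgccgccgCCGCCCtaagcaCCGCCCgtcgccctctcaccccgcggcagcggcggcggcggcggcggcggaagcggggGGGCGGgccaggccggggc
GGGCGG occurred 3 times in the DAG1 window and 3 times in the POMGNT1 window, and 42.6% of 35116 RefSeq windows of this length held at least 1. CCAAT occurred 1 time in the DAG1 window and 0 times in the POMGNT1 window, against 32.01% of windows with at least 1. In the windows of the second listed starts, DAG1 held GGGCGG 3 times and CCAAT 2 times, whereas POMGNT1 held each 0 times. The equal GGGCGG counts therefore hold for the first starts only. The second DAG1 window, chr3:49470017-49470266, overlaps the first, so matches in the shared bases are counted in both. The POMGNT1 windows do not overlap. RefSeq entries were matched for 5 of the 7 genes (DAG1, POMGNT1, POMGNT2, POMT1 and POMT2). In the other matched genes GGGCGG occurred 1 time before POMT2 and 0 times before POMT1 and POMGNT2, and CCAAT 0 times in all 3. These matches describe the letters of the windows and show no binding.

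DAG1 (ENSG00000173402, hg38 chromosome 3, 49468703 to 49535618, plus strand) encodes the precursor of alpha- and beta-dystroglycan, the substrate of the other members. It had 2255 and 2319 counts in shSPTLC2 replicates 1 and 2, against 2803 and 3285 in shCON replicates 1 and 2. Per length this was 21.9 and 21.7 FPKM in shSPTLC2 and 27.3 and 32.3 FPKM in shCON. Both shSPTLC2 libraries lay below both shCON libraries, and the shSPTLC2 pair lay closer together than the shCON pair. DAG1 fell, with a fitted ratio of 0.735 and a log2 fold change of -0.45 ± 0.11 (SE; adjusted p = 0.011, adjusted by Benjamini-Hochberg over 15313 genes tested with edgeR's quasi-likelihood fit). Leaving out shSPTLC2 replicate 1 ended the call at an adjusted p of 0.143 (-0.45), as did leaving out shSPTLC2 replicate 2 at 0.128 (-0.44), and the adjusted p ran from 2.5e-06 to 0.143 over the 15 alternatives. The change remained at -0.48 with a correction for GC content (adjusted p = 0.0058). In all, 1882 tested genes had a lower log2 fold change than DAG1.

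POMT1 and POMT2 encode the paired mannosyltransferases that start the chain. POMT1 (ENSG00000130714, chromosome 9, 131502902 to 131523806) had 492 and 506 counts in shSPTLC2 and 416 and 507 in shCON. The shSPTLC2 values fell inside the shCON range. The difference of 0.08 ± 0.14 (log2, SE) was not called (adjusted p = 0.72 in edgeR), and it was -0.076 without shCON replicate 1. POMT2 (ENSG00000009830, chromosome 14, 77274956 to 77320884) had 478 and 428 counts in shSPTLC2, against 394 and 390 in shCON. The groups did not overlap, but the difference of 0.18 ± 0.13 was not called (adjusted p = 0.37 in edgeR). The ratio of POMT1 to POMT2 in FPKM was 1.70 and 1.95 in shSPTLC2 and 1.74 and 2.14 in shCON, so the libraries of the groups overlapped in it.

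POMGNT1 and POMGNT2 encode the N-acetylglucosaminyltransferases that act on different mannoses of the protein. POMGNT1 (ENSG00000085998, chromosome 1, 46188682 to 46220305) had 1293 and 1330 counts in shSPTLC2, against 1097 and 1116 in shCON. In FPKM these were 14.02 and 13.87 in shSPTLC2 and 11.95 and 12.27 in shCON. Every shSPTLC2 library was above every shCON library, yet the log2 fold change of 0.21 ± 0.11 was not called (SE; adjusted p = 0.18 in edgeR). POMGNT2 (ENSG00000144647, chromosome 3, 43079232 to 43106076) had 436 and 395 counts in shSPTLC2, against 371 and 347 in shCON. Its log2 fold change was 0.18 ± 0.13 (adjusted p = 0.37 in edgeR), and it was 0.03 with a correction for GC content. Its longest coding transcript holds 60.1% G and C, above 86.9% of tested genes.

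POMK (ENSG00000185900, chromosome 8, 43093506 to 43123434, plus strand) encodes the kinase that phosphorylates the mannose on which the matriglycan linker is built. It had 49 and 67 counts in shSPTLC2 replicates 1 and 2, against 128 and 192 in shCON replicates 1 and 2. The exact 95% Poisson intervals, which cover counting error only, were 36.3 to 64.8 and 51.9 to 85.1 counts in shSPTLC2 and 107 to 152 and 166 to 221 counts in shCON. The shCON intervals did not overlap each other, so the control libraries differed by more than counting error, while those of shSPTLC2 overlapped. In FPKM, POMK was at 1.75 and 2.31 in shSPTLC2 and 4.61 and 6.97 in shCON. The log2 fold change that led to its choice was -1.50 ± 0.25 (SE), and 99 of the 15313 tested genes had a lower one. It was -1.17 without shCON replicate 2 and -1.78 without shCON replicate 1, the extremes when a single library was left out. The ratio of POMK to POMGNT2, which acts earlier on the same glycan, was 0.160 and 0.241 in shSPTLC2 and 0.490 and 0.786 in shCON, in FPKM.

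LARGE2 (ENSG00000165905, chromosome 11, 45921621 to 45929096) encodes a matriglycan polymerase and had 0 counts in all 4 libraries. A count of 0 allows up to 0.204 and 0.195 CPM in the shSPTLC2 libraries, against 0.202 and 0.206 CPM in the shCON libraries. No change in LARGE2 was detectable at this depth.

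**Figure D1:**
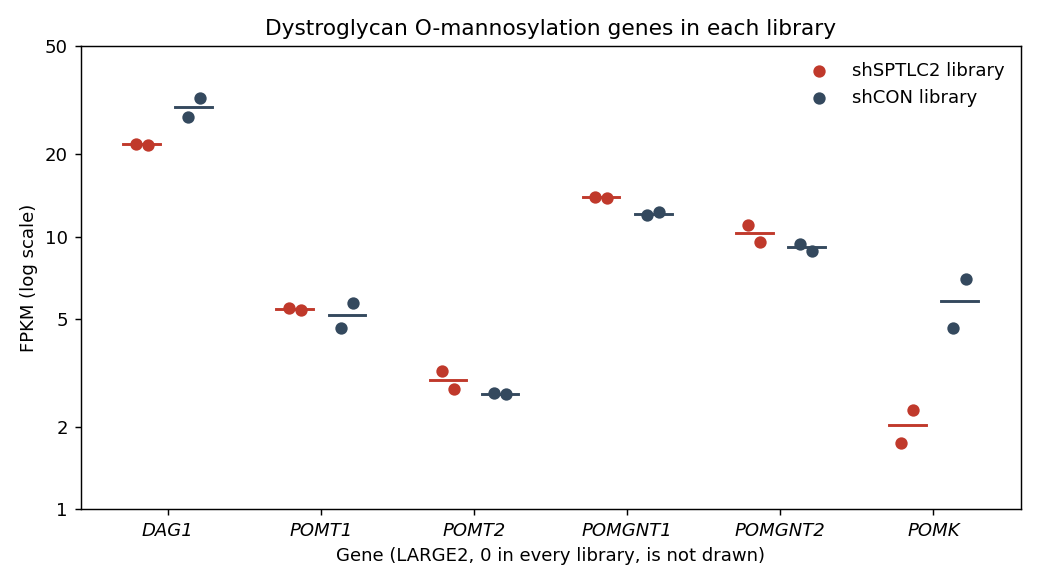
FPKM (log scale) of the 6 detected genes in each library, with points for libraries and a line at the mean of each group (n = 2). POMK and DAG1 have both shSPTLC2 points below both shCON points, and POMT2, POMGNT1 and POMGNT2 have both above. The points of POMT1 overlap between groups. Over all tested genes, 61.5% had no overlap between groups in CPM.

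Of the 5 tested members other than POMK, 1 was called lower, 0 were called higher and 4 were not called, beside 19.4% of all tested genes called in either direction, 10.4% called higher and 9.00% called lower. The median log2 fold change of these 5 genes was 0.18, against 0.005 over all tested genes. In 4 of the 5, shSPTLC2 and shCON libraries were fully separated (3 higher and 1 lower), beside 61.5% of all tested genes (31.3% higher and 30.2% lower). These shares of 5 genes show nothing particular to the members.

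The plot of levels also gives the order of the genes per length. In shSPTLC2 the order in FPKM was DAG1 (21.8 ± 0.166; mean ± SD, n = 2), POMGNT1 (13.9 ± 0.104), POMGNT2 (10.3 ± 0.998), POMT1 (5.42 ± 0.041), POMT2 (2.99 ± 0.315), POMK (2.03 ± 0.391) and LARGE2 at 0. No neighbours in that order overlapped between libraries. In shCON the order was DAG1 (29.8 ± 3.53), POMGNT1 (12.1 ± 0.223), POMGNT2 (9.13 ± 0.374), POMK (5.79 ± 1.67), POMT1 (5.16 ± 0.752), POMT2 (2.66 ± 0.003) and LARGE2 at 0, with POMK and POMT1 overlapping. POMK therefore stood below POMT2 in shSPTLC2 and level with POMT1 in shCON. The table's gene length joins the exons of all transcripts and is 10008 bases for POMT2, whose longest coding transcript has 4876 bases. Per kilobase of the longest coding transcript, a scale chosen after seeing the data, POMGNT1 had 25.1 ± 0.259 CPM in shSPTLC2 and stood just under DAG1 (26.1 ± 0.274), while POMK in shCON overlapped POMT2 (5.85 ± 1.72 and 5.47 ± 0.029 CPM per kilobase). DAG1 over POMGNT1 in FPKM was 1.56 and 1.56 in shSPTLC2, against 2.29 and 2.64 in shCON.

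**Figure D2:**
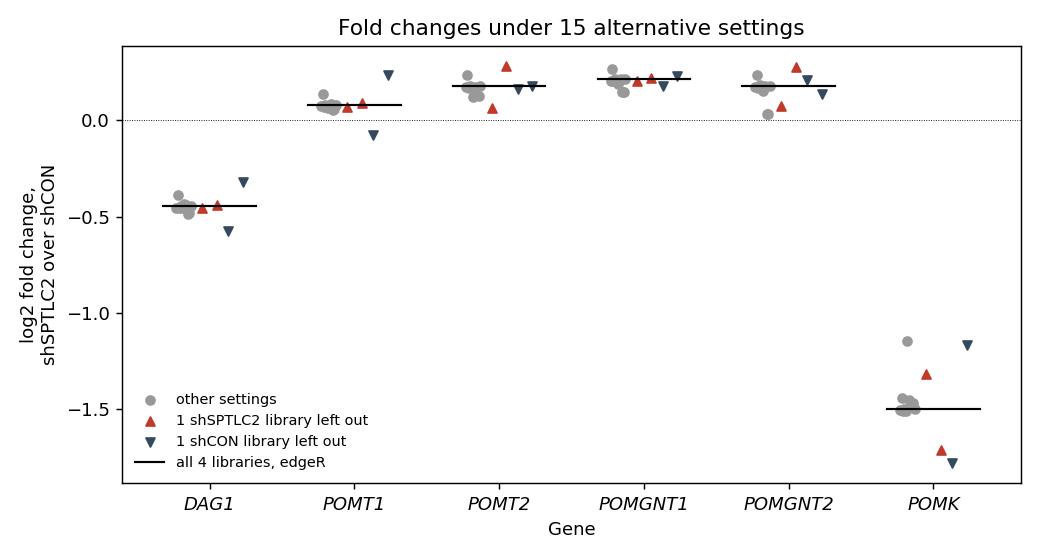
Log2 fold change, shSPTLC2 over shCON, of the 6 detected genes in the fit of all 4 libraries (line) and under 15 alternative settings (points). POMK ranges from -1.78 to -1.15 and DAG1 from -0.58 to -0.32, and POMT1 crosses 0 when shCON replicate 1 is left out.

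Reads of other genes could reach the members' counts, since the strand setting of the counting is not given. POMGNT1 overlaps LURAP1 on the other strand, and 538 of 3431 stretches of 50 bases in the longest POMGNT1 coding transcript also occur in LURAP1 transcripts on either strand. LURAP1 had 16 and 16 counts in shSPTLC2 and 4 and 15 in shCON, far below POMGNT1. POMK shared 18 of 1816 such stretches with 4 other genes and POMT1 shared 11 of 3271 with an antisense gene, AL358781.2, that had 1 to 3 counts per library. DAG1, POMT2, POMGNT2 and LARGE2 shared 0. POMT1 overlaps UCK1 by 6 bases, and UCK1 had a log2 fold change of 0.10 ± 0.13 (SE; adjusted p = 0.64 in edgeR). POMGNT2 overlaps the noncoding genes AC092042.1 and AC092042.4, which had 0 to 4 counts per library.

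POMT2 overlaps GSTZ1, an enzyme gene of tyrosine breakdown that starts on the other strand, by 1 base at their starts. GSTZ1 had 111 and 100 counts in shSPTLC2, against 201 and 206 in shCON. GSTZ1 fell, with a log2 fold change of -0.98 ± 0.18 (SE; adjusted p = 0.0020 in edgeR), while POMT2 at 0.18 was not called. SPTLC2, the labelled hairpin target, lies 185 kb from POMT2. Of 18 tested genes within 500 kb of POMT2, 0 rose, 3 fell and 15 were not called, beside 19.4% of all tested genes called. Over all tested genes, 9.00% were called lower. The 3 that fell were GSTZ1, SPTLC2 and the splicing gene SNW1 (-0.35 ± 0.11, adjusted p = 0.040 in edgeR). SNW1 was named after its value was seen. The nearest tested genes that do not overlap POMT2, CIPC and TMED8, had log2 fold changes of 0.18 ± 0.15 and 0.03 ± 0.14.

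Of 6 tested genes within 500 kb of POMK, 0 rose, 1 fell and 5 were not called, beside 19.4% of all tested genes called. The median log2 fold change of these 6 genes was -0.09. The one that fell was the processed pseudogene AC113191.1, on the other strand 2.56 kb past the end of POMK, with 38 and 36 counts in shSPTLC2 and 76 and 58 in shCON. It changed by -0.88 ± 0.29 (log2, SE; adjusted p = 0.041 in edgeR). The call ended when either shSPTLC2 library (0.168 and 0.203) or shCON replicate 1 (0.160) was left out, under DESeq2 (0.118) and with library totals (0.052), over 0.015 to 0.203 in the alternatives. Reads of a pseudogene may come from its parent gene, so its counts are uncertain. FNTA, the farnesyltransferase subunit gene 7.72 kb on the other side, had a log2 fold change of 0.21 ± 0.14 (adjusted p = 0.31 in edgeR).

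**Figure D3:**
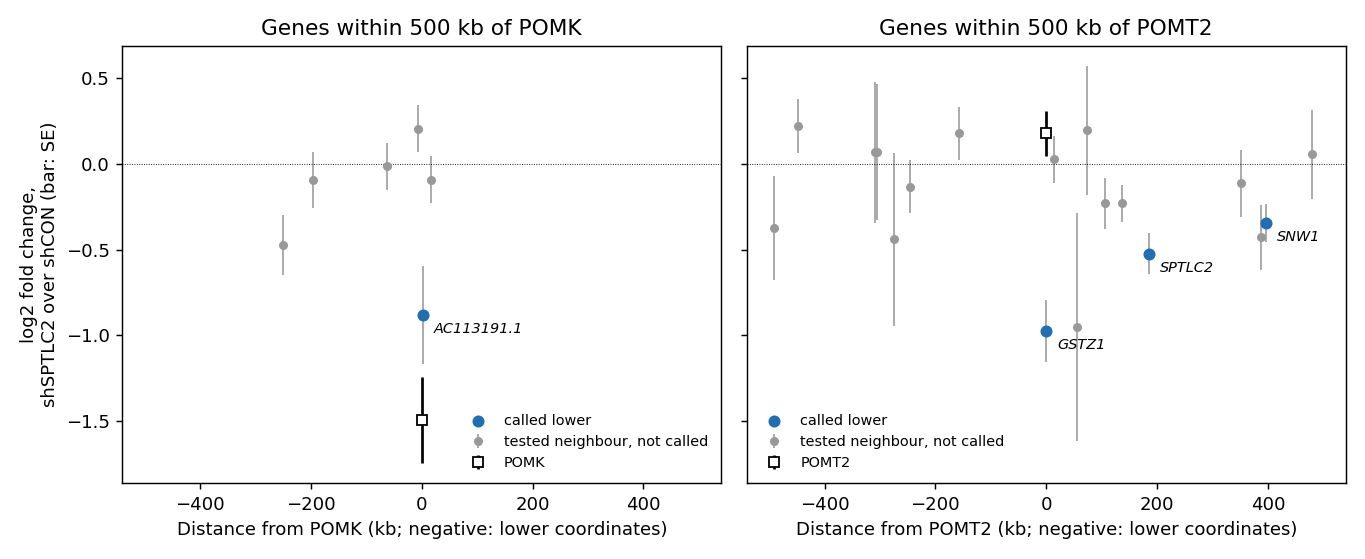
Log2 fold change (bars, SE) of tested genes against their distance in kb from POMK and from POMT2, with genes called lower in blue and the member as an open square. POMK at -1.50 lies below its 6 neighbours, which follows largely from its choice for a strong fall. POMT2 at 0.18 lies above GSTZ1 at -0.98, with which it shares its start.

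The genes whose centred log2 CPM over the 4 libraries lay nearest to that of POMK, among 10846 genes averaging 5 CPM or more, were CCL5 (Euclidean distance 0.20 on the log2 scale), IFI44L (0.26), CTSO (0.34), ZNF773 (0.34) and DDIT4 (0.38). CCL5, a chemokine gene, had 7.48 and 9.19 CPM in shSPTLC2, against 18.6 and 24.2 CPM in shCON. In all 5, as in POMK, both shSPTLC2 libraries were low and shCON replicate 2 was the highest. DAG1 stood 778th in this order at a distance of 1.08, and POMT1, POMT2, POMGNT1 and POMGNT2 lay at 1.58 to 1.75. This likeness is a description over 4 libraries and follows from how POMK was chosen.

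Most other genes of the pathway were not called. Of 58 genes in 6 further lists, 48 were tested, of which 5 rose, 7 fell and 36 were not called, 25% called beside the 19.4% of all tested genes. Their median log2 fold change was 0.05. Without shSPTLC2 replicate 1 the numbers were 2 higher and 3 lower, and without shSPTLC2 replicate 2 they were 0 higher and 3 lower.

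Of the enzymes that act beside POMK on the matriglycan chain, 3 are described. B4GAT1, which adds glucuronic acid to the linker, was the most abundant of its list at 14.8 ± 0.293 FPKM in shSPTLC2 and 12.3 ± 0.71 FPKM in shCON, and its log2 fold change of 0.28 ± 0.13 (SE) was not called (adjusted p = 0.14 in edgeR). RXYLT1, a xylosyltransferase gene, was at -0.25 ± 0.15, and B3GALNT2, whose product acts just before the kinase, was at 0.22 ± 0.16, neither called.

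Of 12 tested genes that supply the sugar donors, 9 were not called, 2 rose and 1 fell, with a median log2 fold change of -0.07, beside 19.4% of all tested genes called in either direction. PMM1, a phosphomannomutase gene, had 248 and 269 counts in shSPTLC2, against 166 and 156 in shCON, and rose by 0.65 ± 0.16 (SE; adjusted p = 0.0097 in edgeR). PMM2, the paralog that provides most of this activity in human cells, had 184 and 192 counts in shSPTLC2, against 262 and 281 in shCON, and fell by 0.56 ± 0.15 (adjusted p = 0.018). The groups did not overlap in either phosphomannomutase gene. The PMM2 call ended under both limma settings (adjusted p = 0.075 and 0.077 in limma), whereas the PMM1 call held (0.041 and 0.042). GMPPA, a regulatory subunit gene of GDP-mannose synthesis, rose by 0.52 ± 0.12 (adjusted p = 0.0076), at 9.05 ± 0.425 FPKM in shSPTLC2 and 6.34 ± 0.165 FPKM in shCON. All 3 calls ended without shSPTLC2 replicate 1 (adjusted p 0.090 for PMM1, 0.143 for PMM2 and 0.073 for GMPPA) and without shSPTLC2 replicate 2 (0.099, 0.121 and 0.104), with ranges over the alternatives of 0.0034 to 0.099, 0.0036 to 0.143 and 0.0016 to 0.104 in edgeR, DESeq2 or limma. The most abundant genes of this list, DPM1 for dolichol-phosphate-mannose synthase (50.6 ± 1.01 FPKM in shSPTLC2 and 55.4 ± 7.38 FPKM in shCON) and NUS1 for dolichol synthesis, were not called. NUS1 at -0.17 ± 0.13 was called lower without shCON replicate 2 (-0.37, adjusted p = 0.0099 in edgeR) and was at 0.039 without shCON replicate 1 (0.0099 to 0.851 over the alternatives).

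Among other O-mannose enzymes, 2 of 8 tested rose and 0 fell, 25% called beside 19.4% of all tested genes. TMTC4, of a family that mannosylates cadherins, had 347 and 440 counts in shSPTLC2, against 239 and 210 in shCON, and rose by 0.78 ± 0.15 (SE; adjusted p = 0.0026 in edgeR), a call that ended without shSPTLC2 replicate 2 (0.065; 1.3e-05 to 0.065 over the alternatives). B3GAT2, a glucuronyltransferase gene, was called higher on 12 and 18 counts in shSPTLC2, against 4 and 2 in shCON (2.24 ± 0.66, adjusted p = 0.026), and the call ended whichever library was left out (0.056 to 0.279, over 0.019 to 0.279 in the alternatives). The B3GAT2 call also ended under both limma settings (adjusted p = 0.141 and 0.070 in limma). The abundant genes of this list, CHST10 (-0.14 ± 0.13) and TMTC3 (0.25 ± 0.12), were not called, and B3GAT1 had 0 counts throughout. TMTC3 was called higher without shCON replicate 1 (0.37, adjusted p = 0.036 in edgeR; 0.036 to 0.675 over the alternatives) and was at 0.085 with GC-content offsets.

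Of 8 tested genes of matriglycan ligands, 1 rose, 2 fell and 5 were not called, beside 19.4% of all tested genes called. LAMA5, the laminin alpha-5 chain gene, had 42.0 and 47.5 FPKM in shSPTLC2, against 29.6 and 31.8 FPKM in shCON, and rose by 0.55 ± 0.11 (SE; adjusted p = 0.0034 in edgeR). Its transcript is rich in G and C (66.4%), and the call ended with a correction for GC content (0.160) and without shSPTLC2 replicate 2 (0.099), over 1.0e-06 to 0.201 in the alternatives. AGRN, the agrin gene and the most abundant ligand gene at 65.8 ± 7.97 FPKM in shSPTLC2 and 54.8 ± 4.72 FPKM in shCON, was not called (0.27 ± 0.12), was called without shCON replicate 1 (adjusted p = 0.0071; 0.0071 to 0.836 over the alternatives in edgeR, DESeq2 or limma), and was at -0.044 with the GC correction. SLIT2, a guidance ligand gene, had 0.976 and 0.925 FPKM in shSPTLC2, against 2.81 and 3.18 FPKM in shCON, and fell by 1.64 ± 0.15 (adjusted p = 7.8e-06 in edgeR). EYS was called lower on 10 and 9 counts in shSPTLC2, against 24 and 28 in shCON (-1.47 ± 0.45, adjusted p = 0.032 in edgeR). The EYS call ended whichever library was left out. It also ended under both limma settings (adjusted p = 0.341 and 0.185 in limma), over 0.029 to 0.341 in the alternatives.

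Of 12 tested partners of dystroglycan in the dystrophin complex, 0 rose, 1 fell and 11 were not called. Over all tested genes, the share called was 19.4%. PLEC, the gene of the cytoskeletal linker plectin, had 152 and 153 FPKM in shSPTLC2, against 202 and 192 FPKM in shCON, and fell by 0.36 ± 0.12 (SE; adjusted p = 0.044 in edgeR). The call ended without either shSPTLC2 library (0.299 and 0.263), with library totals (0.088), with a replicate block (0.079) and under both limma settings (0.060 and 0.057). GC-content offsets gave PLEC a larger change of -0.67 (adjusted p = 0.0022 in edgeR), and the adjusted p ran from 0.0016 to 0.299 over the alternatives. UTRN, the dystrophin paralog gene, had a log2 fold change of -0.23 ± 0.13, and SGCB, the most abundant sarcoglycan gene, of 0.22 ± 0.12. The sarcoglycan genes SGCA, SGCD and SGCZ had 0 counts in every library.

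Of the 3 genes of proteases that cleave dystroglycan, 0 rose and 2 fell, beside 10.4% of all tested genes called higher and 9.00% lower. These 3 genes were too few to compare with those shares. MMP2 had 51 and 51 counts in shSPTLC2, against 122 and 122 in shCON, and fell by 1.29 ± 0.23 (SE; adjusted p = 0.0015 in edgeR) under every alternative tried, leaving out each library included. MMP9 had 60 and 78 counts in shSPTLC2, against 160 and 108 in shCON, and fell by 0.99 ± 0.24 (adjusted p = 0.010), a call that ended without shSPTLC2 replicate 1 (0.148; 2.7e-05 to 0.148 over the alternatives). Per length, MMP2 was at 0.682 ± 0.019 FPKM in shSPTLC2 and 1.68 ± 0.010 FPKM in shCON, and MMP9 at 1.94 ± 0.306 FPKM in shSPTLC2 and 3.89 ± 1.04 FPKM in shCON. FURIN, the convertase gene whose product cleaves the amino-terminal part of alpha-dystroglycan, was the most abundant of the list and was not called (0.20 ± 0.11).

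**Figure D4:**
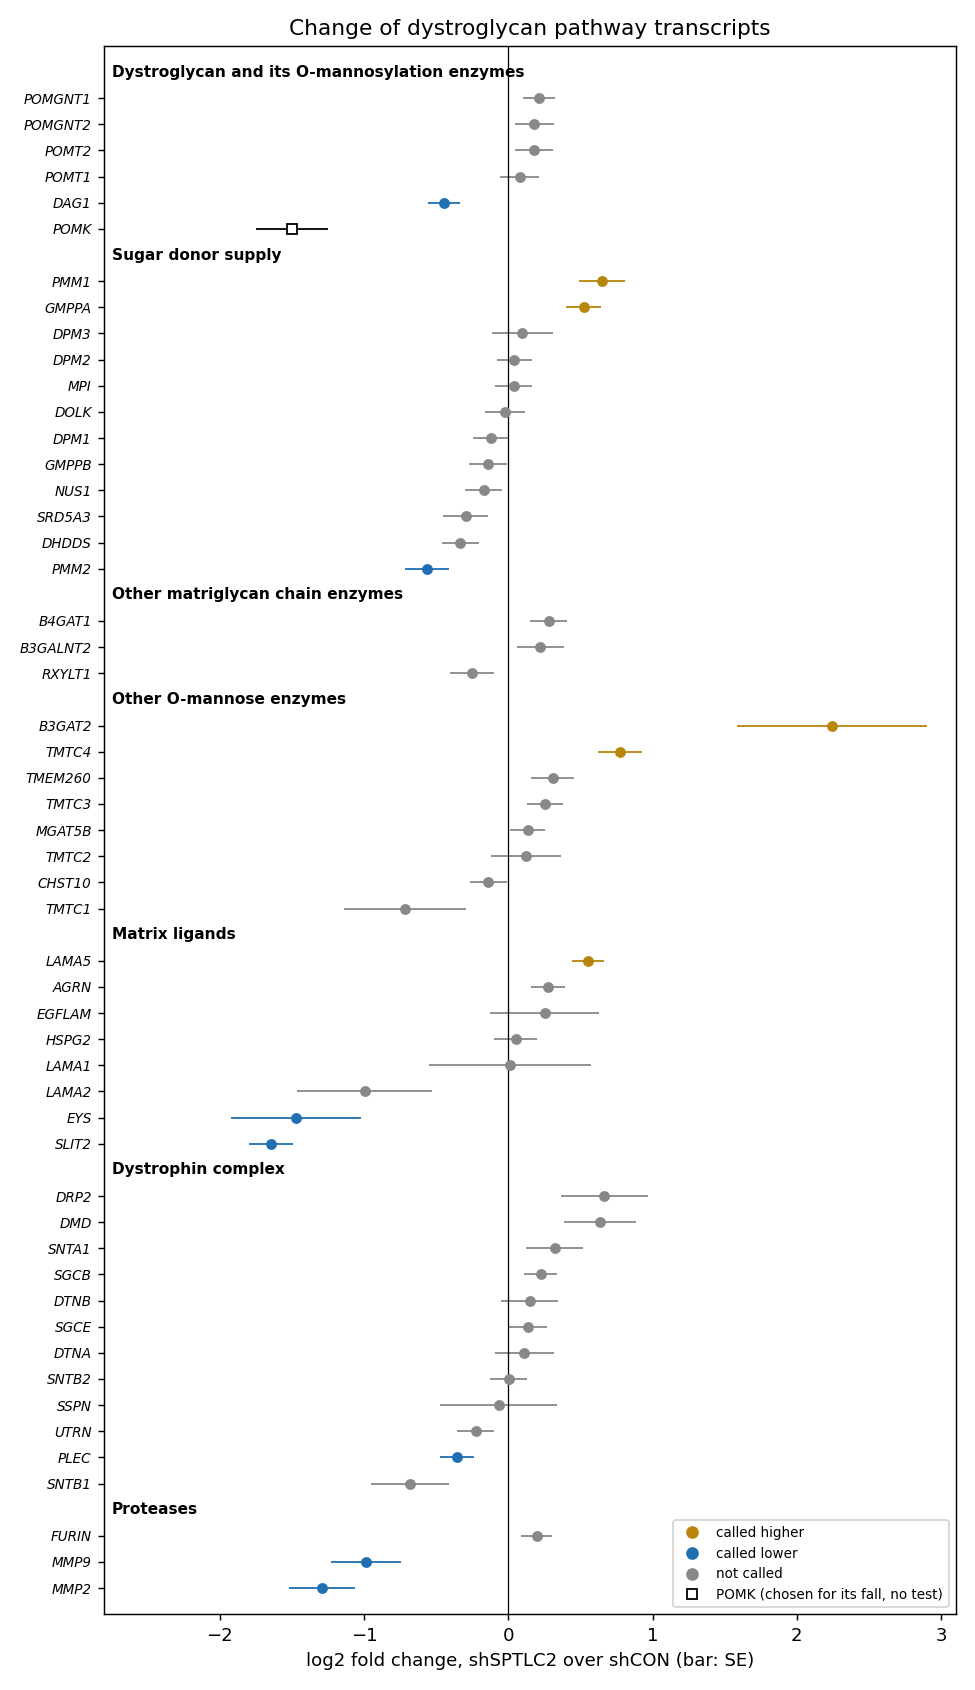
Log2 fold change, shSPTLC2 over shCON (bars, SE), of tested genes of the pathway by role, coloured by its call. SLIT2 at -1.64, POMK at -1.50, EYS at -1.47 and MMP2 at -1.29 lie furthest to the left. POMT1, POMT2, POMGNT1 and POMGNT2 lie between 0.08 and 0.21.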

How the data were processed

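The authors deposited gene counts, which are whole read numbers with no normalization, and FPKM, which scale fragments by gene length and depth per the file headers. Per the submitters' processing notes, HISAT2, StringTie, SAMtools and build hg38 were used. Versions and strand were not given in the sources used here. All 58735 gene IDs matched GENCODE 29, which gave transcript lengths and GC content. Counts were tested in edgeR 4.0.16 (R 4.3.3) after filterByExpr (minimum count 10, total 15), TMM scaling and a robust quasi-likelihood fit, two-sided, adjusted by Benjamini-Hochberg over 15313 genes. A gene rose or fell, or was called, at an adjusted p under 0.05. CPM use TMM-adjusted library sizes. The SE was taken as |log2 fold change| / √F. Alternatives were DESeq2 1.42.0, limma 3.58.1 on log2(FPKM + 1) and log2(FPKM + 0.1), RLE or total scaling, other filters, GC-content offsets, a replicate block, no mitochondrial genes (added after seeing the data) and each library left out. A lone library is then assumed to vary like the others. Named genes are the members, genes overlapping them, the nearest tested neighbours of POMK and POMT2, the 5 genes most like POMK and, in each list, the called genes and the 2 most abundant. UTRN, RXYLT1 and B3GALNT2 were added later. Some genes of the lists are counted in their totals but are not reported here. Members and lists were chosen with earlier results of these data known. A count of 0 allows up to 3 counts, and intervals cover counting error only.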

Additional observations from a re-analysis of the deposited data

How the results depend on the processing

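Over all genes 1593 were called higher and 1378 lower, against 1927 and 1032 with library totals, 921 and 795 with limma on log2(FPKM + 1), 920 and 799 with limma on log2(FPKM + 0.1), and 413 to 1977 and 227 to 2050 with 1 library left out. The lowest numbers came without shSPTLC2 replicate 1. Among members other than POMK, 0 to 1 were called lower with 1 library left out. In the further lists 0 to 7 were called higher and 3 to 8 lower then, and 3 were called lower under either limma setting. Over 39 genes and 15 alternatives, 521 values kept their direction and (POMK, which was not tested, aside) their call. Another 46 values lost the call, 3 gained it and 10 took the other sign. The 39 include POMK, chosen for its fall, and the 5 genes most like it, so their steadiness follows in part from that choice. Some named genes, such as UTRN and PECAM1, are not among the 39. With 1 library left out, log2 fold changes that took the other sign ran from -0.076 to 0.24 for POMT1, -0.27 to 0.022 for DPM1, -0.37 to 0.039 for NUS1, -0.056 to 0.10 for TMED8 and -0.020 to 0.20 for UCK1. GC-content offsets gave -0.044 for AGRN and -0.0068 for UCK1, and with the replicate block as well -0.053 and -0.0080. The cause was not tested. Same-numbered libraries deviated with a correlation of -0.013, so no shared deviation was seen. With 2 libraries per group this is a single value, and it cannot show whether they shared a culture or a batch. The replicate block gave 1776 genes called higher and 1531 lower, DAG1 at -0.44, and 0 members higher and 1 lower. DESeq2 gave no adjusted p for B3GAT2, EYS and LURAP1, and a mean of at least 1 CPM left out B3GAT2 and LURAP1, so these have no such value. Genes under 100 counts, such as POMK in shSPTLC2, are limited by counting error.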
